A study of Saccharomyces cerevisiae with 12 samples.

Results

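The HAP2/3/4/5 complex of budding yeast was followed through the transcripts of its 4 subunits, HAP2 (YGL237C), HAP3 (YBL021C), HAP4 (YKL109W) and HAP5 (YOR358W). The members were taken by their systematic ORF names and not by a cut on measured values, though earlier results of these data were known. They are 4 of the 6150 open reading frames (ORFs) in the table, and all 4 had a value on all 12 arrays and were among the 5672 ORFs tested. The strain was BY4741 of Saccharomyces cerevisiae, a haploid laboratory background in which HIS3, LEU2, MET17 and URA3 are disabled and HAP1 carries a Ty insertion. It was grown on glucose and then moved to nylon membranes on solid YP acetate. The cells were kept in pure carbon monoxide (CO), in pure nitrogen (N2) or in room air for 15, 30, 45, 60 or 120 min or for 24 h. Each 2-colour array set RNA of cells in 1 gas (Cy5) against RNA of cells in air for the same time (Cy3), which gave 6 arrays for CO and 6 for N2, with 1 array per gas and time. All groups therefore share the strain, the move from glucose to acetate and the plate, and the air cells aged on acetate along with the gas cells.

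HAP2/3/4/5 is the activator of respiration that binds CCAAT boxes in promoters of genes for the respiratory chain, the tricarboxylic acid (TCA) cycle and heme synthesis. HAP2, HAP3 and HAP5 make up the part that binds DNA, with HAP3 and HAP5 pairing through histone folds and HAP2 contacting the box, and HAP4 brings the acidic activation domain without which the complex does not activate. HAP4 is also the subunit that is regulated: its gene is repressed on glucose and induced on carbon sources that are respired, whereas the DNA-binding subunits vary less with carbon source.

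Values are log2 ratios of gas over air as deposited. Neither the base nor the direction is stated in the sources used here: base 2 was inferred from how far the values spread, and gas over air from which dye each sample carried. Any pair of arrays correlated positively across ORFs (r = 0.326 to 0.856), the array medians lay between -0.18 and 0.01, and the SD across ORFs widened over time, being 0.342 in CO and 0.337 in N2 at 15 min and 1.19 in CO and 1.28 in N2 at 24 h. A ratio can change through the gas cells or through the air cells, and fewer cells carrying a transcript and less of it per cell cannot be told apart. No condition was hybridised again or with the dyes exchanged, so arrays of different times served as replicates and every p rests on the spread among these arrays, not among cultures. The number of arrays limits the precision.

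HAP4 was low in both gases during the first hour, was back at the level of air cells at 120 min and was high after 24 h. In CO its log2 ratio was -0.66 at 15 min, -0.78 at 30 min, -0.83 at 45 min, -0.75 at 60 min, 0.07 at 120 min and 1.79 at 24 h. In N2 it was -0.75, -1.28, -0.57, -0.53, -0.05 and 2.03 at the same times. All 8 arrays of 15 to 60 min lay below 0, which 18.2% of tested ORFs met, and both arrays of 120 min lay within 0.1 of 0. The 24 h arrays lay above all 10 earlier ones, so the late and early values did not overlap, as for 18.5% of tested ORFs. HAP4 was the subunit with the widest range, 3.31 between its lowest and highest array, against 2.10 for HAP2, 1.56 for HAP5 and 1.48 for HAP3.

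**Figure D1:**
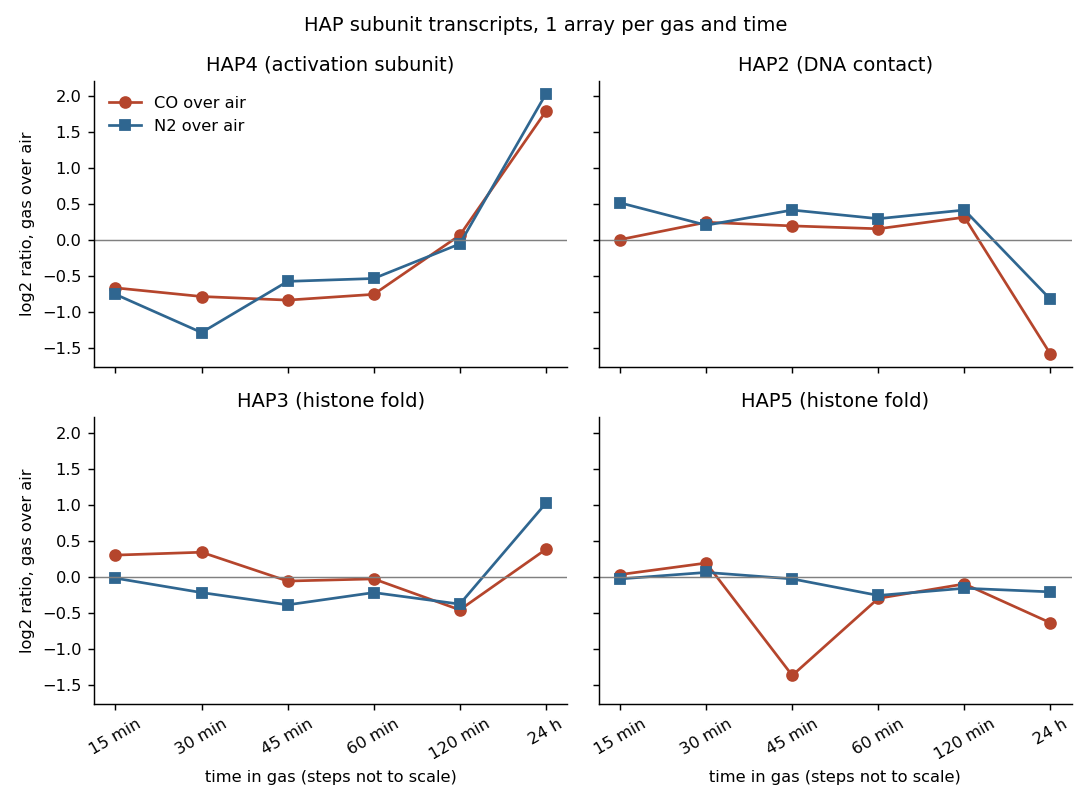
Log2 ratio of gas over air of each HAP subunit (vertical axis) at each time in gas (horizontal axis, steps not to scale), with CO as circles and N2 as squares; each point is 1 array, so there are no error bars. HAP4 lies between -1.28 and -0.53 at 15 to 60 min and at 1.79 and 2.03 at 24 h, while HAP2 lies at -1.58 and -0.82 at 24 h, below all of its earlier values.

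The first hour was tested as the mean of the 4 arrays of 15 to 60 min of each gas against 0, in a limma fit of those 8 arrays across all tested ORFs. This window was chosen when the opposite early and late values of HAP4 were already known. Its p-values for HAP4 are therefore not an independent test. HAP4 fell by 0.75 ± 0.13 in CO (log2, SE, n = 4 arrays; adjusted p = 0.00362) and by 0.78 ± 0.13 in N2 (n = 4 arrays; adjusted p = 0.00284). In CO, HAP4 was the 1 subunit of 4 called, where 16.9% of all tested ORFs were called lower and 13.2% higher. In N2, 1 subunit was called lower (HAP4) and 1 higher (HAP2), where 19.2% of ORFs were called lower and 17.3% higher. A call in itself is therefore common among these ORFs, and HAP4 is better placed by its size: 251 of 5672 ORFs (4.43%) had both gases' means at or below those of HAP4. Both calls of HAP4 held under all 18 alternatives tried for each gas, with values of -1.08 to -0.73 in CO and -1.16 to -0.62 in N2. A constant dye effect would not cancel in these ratios, and no dye swap was made to measure one.

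The place of HAP4 within each array changed along with its ratio. On the CO arrays 2.19% of the tested ORFs lay below HAP4 at 15 min, 5.38% at 30 min, 9.11% at 45 min and 15.0% at 60 min. On the N2 arrays these shares were 1.25%, 1.48%, 17.1% and 21.6%. HAP4 was thus closest to the low end of the array in the first 30 min, in both gases. At 24 h, when the spread across ORFs was widest, 6.26% of ORFs lay above HAP4 in CO and 5.68% in N2.

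**Figure D2:**
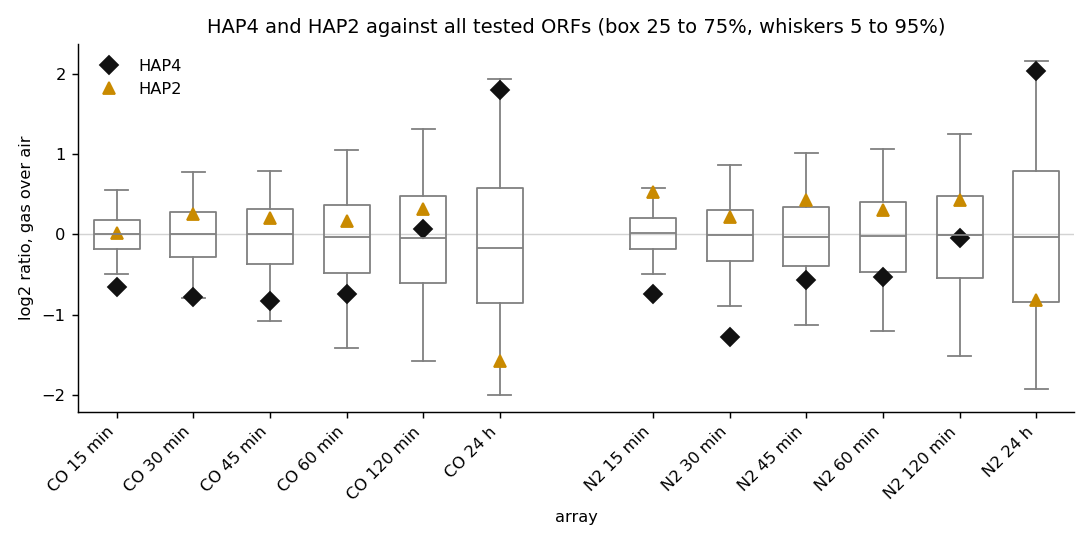
HAP4 (diamonds) and HAP2 (triangles) against the log2 ratios of all 5672 tested ORFs on each array (boxes hold 25 to 75% of ORFs, whiskers 5 to 95%, line at the median), with the CO arrays left and the N2 arrays right. HAP4 sits near or below the lower whisker at 15 and 30 min and near the upper whisker at 24 h, when the boxes are widest.

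At 24 h HAP4 and HAP3 were higher and HAP2 was lower than at the earlier times. The comparison took the 24 h arrays minus the mean of 3 earlier periods (15 and 30 min, 45 min, 60 and 120 min), in a fit of all 12 arrays with period and gas, in which a constant dye effect cancels. HAP4 was higher by 2.54 ± 0.24 (log2, SE; 95% interval 2.01 to 3.07; adjusted p = 1.45e-05), in both gases. HAP2 fell by 1.49 ± 0.18 (95% interval -1.88 to -1.09; adjusted p = 7.28e-05) and HAP3 rose by 0.83 ± 0.22 (95% interval 0.35 to 1.31; adjusted p = 0.00866). HAP5 differed by -0.14 ± 0.25 (95% interval -0.69 to 0.41; adjusted p = 0.662), which did not pass the test. So 3 of 4 subunits were called, 2 higher and 1 lower, where 22.5% of all ORFs were called higher and 25.1% lower. By size, 73 ORFs (1.29%) had a higher 24 h difference than HAP4 and 245 (4.32%) had a lower one than HAP2. The call of HAP3 was lost without the N2 array of 24 h (0.38, adjusted p = 0.254) and after quantile normalization between arrays (0.53, adjusted p = 0.125), while those of HAP4 and HAP2 held under all 22 alternatives, from 1.94 to 2.68 and from -1.77 to -1.03.

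HAP2, the subunit that contacts the CCAAT box, was above air cells while HAP4 was below them in the first hour, and below them while HAP4 was above at 24 h. In CO its log2 ratio was 0.01 at 15 min, 0.25 at 30 min, 0.20 at 45 min, 0.16 at 60 min, 0.32 at 120 min and -1.58 at 24 h. In N2 it was 0.52, 0.21, 0.42, 0.30, 0.42 and -0.82. All 10 arrays to 120 min lay above 0, and both 24 h arrays lay below every earlier one. Over 15 to 60 min its mean was 0.16 ± 0.10 in CO (adjusted p = 0.24) and 0.36 ± 0.10 in N2 (adjusted p = 0.0167). Leaving out 15, 30 or 45 min ended the N2 call (adjusted p of up to 0.098). Lying above 0 on all 8 arrays of 15 to 60 min was met by 16.5% of ORFs, and lying below 0 on all 8, as HAP4 did, by 18.2%.

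HAP3, a histone-fold subunit, stayed close to air cells until 24 h. Its log2 ratio in CO followed 0.30, 0.34, -0.06, -0.03, -0.46 and 0.38 through the 6 times, and in N2 -0.02, -0.22, -0.39, -0.22, -0.38 and 1.02. In CO the 24 h value was just above the 30 min value, whereas in N2 it stood apart from 5 values below 0. Its mean over 15 to 60 min was 0.14 ± 0.11 in CO (adjusted p = 0.36) and -0.21 ± 0.11 in N2 (adjusted p = 0.151). Of all ORFs, 18.5% had both 24 h arrays above all 10 earlier ones, as HAP4 and HAP3 did, and 20% had both below, as HAP2 did.

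HAP5, the other histone-fold subunit, passed no test at its first hour, at 24 h or between gases. Its log2 ratio in CO followed 0.03, 0.19, -1.37, -0.30, -0.10 and -0.64 through the 6 times, and in N2 -0.03, 0.06, -0.03, -0.26, -0.16 and -0.21. The CO array of 45 min held its lowest value, and the N2 arrays lay within 0.26 of air cells throughout. The mean over 15 to 60 min was -0.36 ± 0.21 in CO (adjusted p = 0.213) and -0.06 ± 0.21 in N2 (adjusted p = 0.827). Without the CO array of 45 min the CO mean was -0.03 (adjusted p = 0.896), so that array decided its size.

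**Figure D3:**
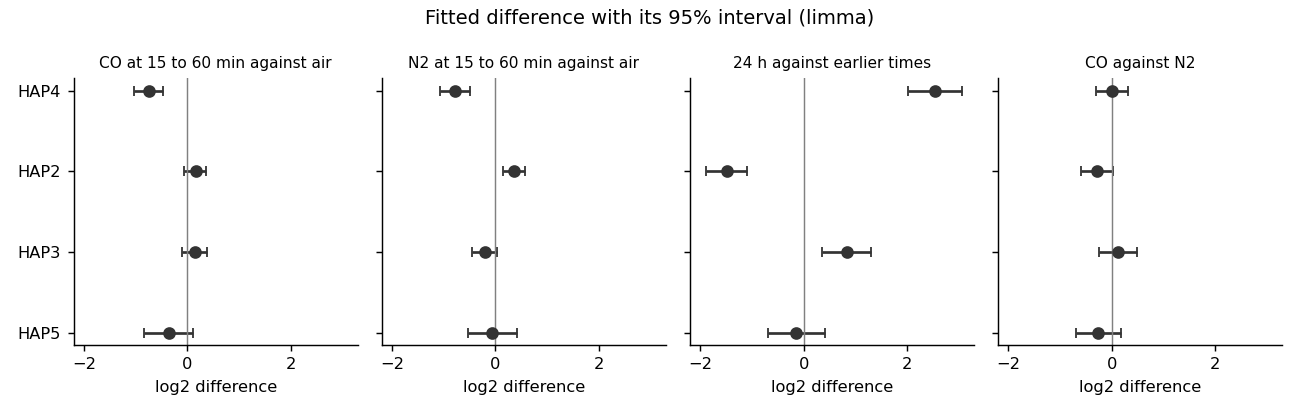
Fitted log2 difference (points) with its 95% interval from limma (bars) for the 4 subunits in 4 comparisons, one per panel. HAP4 lies below 0 in both gases at 15 to 60 min and at 2.54 for 24 h against earlier times, HAP2 lies at -1.49 there, and all 4 intervals of CO against N2 include 0.

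The subunits of the complex thus changed unequally against air, and within an array HAP4 can be set against the others as a difference of log2 ratios. On the CO arrays HAP4 minus HAP2 was -0.67, -1.03, -1.03, -0.91, -0.25 and 3.37 in order of time, and on the N2 arrays -1.27, -1.49, -0.99, -0.83, -0.47 and 2.85. HAP4 minus HAP3 was 1.41 in CO and 1.01 in N2 at 24 h, and HAP4 minus HAP5 was 2.43 and 2.24. These are differences of change and not levels: how much HAP4 transcript there was relative to HAP2 cannot be read from ratios to air. Across the 12 arrays the log2 ratios of HAP4 and HAP2 correlated at r = -0.845, and over the 10 arrays to 120 min at 0.346, so the negative value rests on the 24 h arrays. HAP4 and HAP3 correlated at 0.62 over 12 arrays and at -0.486 over 10.

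CO, which binds reduced heme besides removing oxygen, was set against N2 with time as a block, to ask whether its effect differs from that of anoxia alone. No subunit was called: the difference of CO minus N2 was 0.00 ± 0.14 for HAP4 (95% interval -0.31 to 0.31; adjusted p = 0.997), -0.28 ± 0.14 for HAP2 (-0.59 to 0.03; adjusted p = 0.518), 0.11 ± 0.16 for HAP3 (-0.25 to 0.48; adjusted p = 0.839) and -0.26 ± 0.20 for HAP5 (-0.70 to 0.18; adjusted p = 0.669). At an unadjusted p under 0.05, 0 of the 4 subunits and 584 of 5672 ORFs passed in this limma fit, and after adjustment 0% of ORFs were called. HAP2 was lower in CO than in N2 at 15, 45, 60 and 120 min and 24 h and higher at 30 min (0.25 in CO, 0.21 in N2). The intervals leave room for differences of 0.31 in HAP4 and of up to 0.70 in HAP5, so like action of the gases is not shown.

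Averaged over all 6 times, the opposite early and late values of HAP4 nearly cancelled. Its mean was -0.19 ± 0.39 in CO (n = 6 arrays; adjusted p = 0.719) and -0.19 ± 0.39 in N2 (adjusted p = 0.716). None of the 4 subunits was called in either gas by limma, where 12.7% of ORFs were called higher and 19.4% lower in CO, and 17.6% and 20.2% in N2. At an unadjusted p under 0.05, 1 subunit passed in CO (HAP5) and 0 in N2. HAP5 averaged -0.37 ± 0.17 in CO (adjusted p = 0.106), and with time as a replicate block it was called at -0.37 (adjusted p = 0.0463), while without the CO array of 45 min it was -0.16 (adjusted p = 0.368). Without both 24 h arrays HAP4 was called at -0.59 in CO (adjusted p = 0.0168) and -0.64 in N2 (adjusted p = 0.0109), and HAP2 at 0.37 in N2 (adjusted p = 0.00663), whereas HAP2 in CO was at 0.19 (adjusted p = 0.111). The block moved the calls over all ORFs to 1441 higher and 1727 lower in CO, against 720 and 1098 without it, and to 1597 and 1740 in N2, against 1001 and 1146.

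Genes taken as possible targets of the complex were read as 5 lists. These were complex III with cytochrome c, complex IV, ATP synthase, the TCA cycle with complex II, and a list named other known CCAAT targets. Binding or activation of each gene through a CCAAT box was not tested, so the counts describe the lists and not proven targets. The 5 target lists together held 51 genes, of which 47 were tested; CYC1, QCR9, COX7 and COX9 lacked a value on at least 1 array. At 24 h 19 of the 47 were called higher and 1 lower (ACO1, aconitase, -0.69, chosen after its value was seen), with a median difference of 0.55, beside 22.5% and 25.1% and a median of -0.06 over all ORFs. The count higher was 11 without the CO array of 24 h and 5 after quantile normalization. Over 15 to 60 min in CO 14 of the 47 were called higher, where 13.2% of all ORFs were, with a median of 0.42 against 0.00 over all ORFs, and none was called lower (1 at an unadjusted p under 0.05). That CO count was 5 without 30 min and 6 without 45 min. In N2 at those times 3 were called higher and 7 lower, below the 17.3% and 19.2% of all ORFs, with a median of 0.01 against -0.01 over all ORFs, and 3 were lower without 45 min. HAP4 itself was called lower in both gases at these times. The gases were not tested against each other within the first hour. In CO against N2 over all 6 times none of the 47 was called, with a median of 0.30 against -0.03 over all ORFs. At an unadjusted p under 0.05 in that limma fit, 14 of the 47 were higher and none lower, beside 584 of 5672 ORFs in either direction.

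In complex III and cytochrome c, 4 of 8 tested genes rose at 24 h, where 22.5% of all ORFs were called higher. CYT1, cytochrome c1, reached 1.47 (CO) and 1.69 (N2) at 24 h, against -1.03 to 0.23 on the earlier arrays, and was higher by 2.06 ± 0.23 (adjusted p = 4.61e-05). Over 15 to 60 min CYT1 fell by 0.52 ± 0.13 in N2 (adjusted p = 0.0113), in the direction of HAP4, and was at -0.13 ± 0.13 in CO (adjusted p = 0.452). COR1, a core protein of complex III, was higher at 24 h by 1.73 ± 0.19, QCR8 by 1.31 ± 0.29 and QCR7, both small subunits, by 0.92 ± 0.35 (adjusted p = 3.43e-05, 0.0029 and 0.0453). QCR8 was already higher at 15 to 60 min in CO, by 1.07 ± 0.19 (adjusted p = 0.00432), while HAP4 was lower on the same 4 arrays. Without the CO array of 24 h the list had 2 calls, that of QCR8 being lost (adjusted p = 0.0618). The call of QCR8 was also lost with array weights (1.29, adjusted p = 0.051) and after quantile normalization (0.17, adjusted p = 0.809). The call of QCR7 was lost in 14 of 22 alternatives, and that of CYT1 in N2 without its 45 min array (adjusted p = 0.0545).

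Complex IV, cytochrome c oxidase, was called higher for 5 of its 6 tested genes over 15 to 60 min in CO, where 13.2% of all ORFs were, with a median of 0.73. In N2 none of the 6 was called by limma (2 at an unadjusted p under 0.05), with a median of 0.27. Of all ORFs 17.3% were called higher and 19.2% lower in N2. COX5A, the aerobic form of subunit V, was at 0.85, 1.00, 0.65 and 0.82 in CO from 15 to 60 min and rose by 0.83 ± 0.20 (adjusted p = 0.0132); in N2 it was at 0.10, -0.29, 0.43 and 1.22. COX12 and COX13, nuclear-encoded subunits, rose in CO by 0.80 ± 0.22 and 0.66 ± 0.20 (adjusted p = 0.0238 and 0.0312), and COX6 was at 0.71 ± 0.32 (adjusted p = 0.111). Over all 6 times the difference between the gases passed the test for no gene of the complex, nor for any other tested ORF, and 1 of the 6 passed it unadjusted. The CO count was 2 without 30 or 60 min and 1 without 45 min: the call of COX5A was lost without 30 or 45 min, that of COX12 without 45 or 60 min and that of COX13 without any of the 3. At 24 h COX13 alone of the 6 was called, where 22.5% of all ORFs were called higher; it was higher by 2.32 ± 0.35 (adjusted p = 0.000301), at 2.79 in CO and 2.38 in N2, a call lost after quantile normalization (1.10, adjusted p = 0.0774).

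Of 12 ATP synthase genes 5 rose at 24 h, where 22.5% of all ORFs were called higher, with a median of 0.68 over the list. ATP1, the alpha subunit, was at 3.36 in CO and 1.77 in N2, against -0.25 to 0.45 earlier, and was higher by 2.48 ± 0.30 (adjusted p = 6.5e-05). INH1, the inhibitor of the enzyme's ATP hydrolysis, was at 2.37 in CO and 2.89 in N2 and was higher by 1.98 ± 0.30 (adjusted p = 0.000282). ATP4, a stator subunit, was higher by 1.62 ± 0.36 and ATP15, the epsilon subunit, by 0.55 ± 0.21 (adjusted p = 0.00318 and 0.0464), the last lost in 18 of 22 alternatives. The count for ATP synthase was 3 in 12 of 17 settings that left out a time or an array, and 1 after quantile normalization, where the calls of INH1 (0.66, adjusted p = 0.175) and ATP4 (1.10, adjusted p = 0.0764) were lost.

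Of 15 TCA cycle and complex II genes, 6 were called lower in N2 at 15 to 60 min, as HAP4 was. Of all ORFs 19.2% were called lower there, and the median of the list was -0.32. In CO none was called by limma (3 at an unadjusted p under 0.05), with a median of 0.14. Of all ORFs 16.9% were called lower and 13.2% higher in CO. In CO against N2 over all 6 times none of the 15 was called (6 higher at an unadjusted p under 0.05, beside 584 of 5672 ORFs). The gases were not tested against each other within the first hour. IDH1, a subunit of the mitochondrial isocitrate dehydrogenase, was at -0.47, -0.94, -1.37 and -1.13 in N2 and fell by 0.98 ± 0.16 (adjusted p = 0.00307); in CO it was at 0.01, -0.46, -0.54 and -0.82, a mean of -0.45 ± 0.16 (adjusted p = 0.0591). At 24 h 8 of the 15 rose and 1 fell, with a median of 0.73, where 22.5% of all ORFs were called higher and 25.1% lower. IDH1 was then higher by 1.95 ± 0.30, FUM1, fumarase, by 1.71 ± 0.20, LSC2, a succinyl-CoA ligase subunit, by 1.01 ± 0.21, and SDH4, a membrane anchor of complex II, by 1.81 ± 0.39 (adjusted p = 0.000321, 5.94e-05, 0.00216 and 0.00279). The N2 count was 2 without 45 min, and the 24 h count was 4 without the CO array of 24 h, where the call of SDH4 was lost (adjusted p = 0.0519). After quantile normalization the 24 h calls of LSC2 (0.65, adjusted p = 0.089) and SDH4 (1.01, adjusted p = 0.106) were lost and the count was 2.

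Of the 6 genes listed as other known CCAAT targets 1 rose at 24 h, near the 22.5% called higher of all ORFs. This was MBR1, a gene of respiratory growth, which was at 1.97 in CO and 2.27 in N2 and higher by 1.28 ± 0.28 (adjusted p = 0.00278), a call lost after quantile normalization (0.22, adjusted p = 0.664). MBR1 was already higher at 15 to 60 min in N2, by 0.81 ± 0.21 (adjusted p = 0.0154), a call lost in 4 of 18 alternatives. In CO it was then at 0.58 ± 0.21 (adjusted p = 0.0627). At those times 2 of the 6 were called higher in CO and 2 in N2, where 13.2% and 17.3% of all ORFs were. GDH1, the NADP-dependent glutamate dehydrogenase, was higher at 15 to 60 min, by 0.78 ± 0.10 in CO (adjusted p = 0.00174) and 0.37 ± 0.10 in N2 (adjusted p = 0.0153). Its highest value was 2.21 in CO at 120 min, and at 24 h it differed by -0.46 ± 0.32 (adjusted p = 0.254). Leaving out 15, 30 or 45 min, or the N2 array of 60 min alone, ended the N2 call of GDH1 (adjusted p of up to 0.0671). PET9, the ADP/ATP carrier, and SOD2, the mitochondrial superoxide dismutase, differed at 24 h by 0.79 ± 0.34 and 0.41 ± 0.40, which did not pass (adjusted p = 0.0724 and 0.429).

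**Figure D4:**
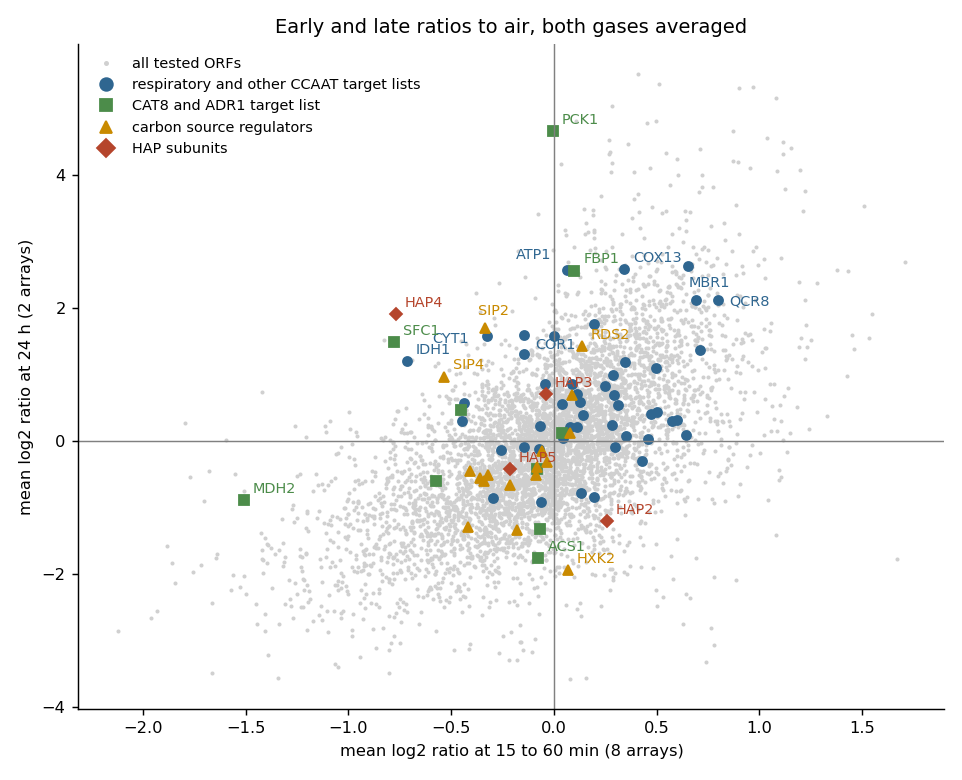
Mean log2 ratio at 24 h (vertical axis, 2 arrays) against the mean at 15 to 60 min (horizontal axis, 8 arrays) for all tested ORFs (grey), the HAP subunits (diamonds), the 5 target lists (circles), CAT8 and ADR1 targets (squares) and carbon source regulators (triangles). HAP4 lies at -0.77 and 1.91, low early and high late, next to SFC1 at -0.78 and 1.48, and HAP2 lies in the opposite corner at 0.26 and -1.20.

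HAP4 transcription is released from glucose repression through the SNF1 kinase, and 9 genes of that route were read beside it. At 24 h 1 rose and 3 fell, where 22.5% of all ORFs were called higher and 25.1% lower, so these counts too are near those of all ORFs. SIP2, a beta subunit of the SNF1 kinase, was at 1.58 in CO and 1.81 in N2, against -0.45 to 0.12 earlier, and was higher by 2.0 ± 0.18 (adjusted p = 9.38e-06). Like HAP4 it fell at 15 to 60 min, by 0.37 ± 0.10 in CO (adjusted p = 0.0185) and 0.30 ± 0.10 in N2 (adjusted p = 0.0321). HXK2, the hexokinase that takes part in glucose repression, was at -2.54 in CO and -1.35 in N2 and fell by 1.92 ± 0.25 (adjusted p = 9.64e-05). SNF1 itself, the catalytic subunit, fell by 0.76 ± 0.24 and SIP1, another beta subunit, by 0.42 ± 0.16 (adjusted p = 0.0211 and 0.0473). SNF1 was also lower at 15 to 60 min, by 0.40 ± 0.10 in CO and 0.44 ± 0.10 in N2 (adjusted p = 0.016 and 0.00893). These calls were lost in 5 and 3 of 18 alternatives. Of the 9 genes 3 were called lower in CO and 2 in N2 at those times, where 16.9% and 19.2% of all ORFs were. The 24 h calls of SNF1 and SIP1 were lost in 4 and 16 of 22 alternatives, and the first-hour calls of SIP2 without 30, 45 or 60 min in both gases (highest adjusted p = 0.0985 in CO and 0.158 in N2).

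Among 8 other regulators of growth on non-fermentable carbon, 2 rose and 1 fell at 24 h, where 22.5% of all ORFs were called higher and 25.1% lower, so the counts do not stand apart. RDS2, a regulator of gluconeogenic genes, was higher by 1.24 ± 0.17 and SIP4, an activator of gluconeogenic promoters, by 1.42 ± 0.28, while RTG3, of the mitochondrial retrograde pathway, fell by 1.23 ± 0.21 (adjusted p = 0.000164, 0.00169 and 0.000695). The call of RTG3 was lost after quantile normalization (-0.60, adjusted p = 0.0937). SIP4 fell in CO at 15 to 60 min, as HAP4 did, by 0.65 ± 0.20 (adjusted p = 0.0348), and was at -0.42 ± 0.20 in N2 (adjusted p = 0.126). Leaving out 15, 30 or 45 min ended the CO call of SIP4 (adjusted p of up to 0.168). RTG1, the partner of RTG3, differed at 24 h by 0.54 ± 0.27 (adjusted p = 0.12), at 0.00 in CO and 1.38 in N2.

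Of 10 targets of CAT8 and ADR1, the activators of gluconeogenesis and of ethanol and fatty acid use, 5 rose and 2 fell at 24 h, where 22.5% of all ORFs were called higher and 25.1% lower. In N2 at 15 to 60 min 5 of the 10 were called lower, with a median of -0.34, where 19.2% of all ORFs were. That count was 3 without 45 min. In CO 2 of the 10 were called lower, with a median of 0.04, where 16.9% of all ORFs were. MDH2, chosen after its values were seen, fell then by 1.94 ± 0.19 in CO and 1.08 ± 0.19 in N2 (adjusted p = 0.00107 and 0.00371). It is among the 5 higher at 24 h (0.63 ± 0.23, adjusted p = 0.0402). It still lay below air cells there, at -1.40 in CO and -0.37 in N2. PCK1, the phosphoenolpyruvate carboxykinase that opens gluconeogenesis, was at 4.60 in CO and 4.71 in N2, against -0.99 to 0.48 earlier, and was higher by 4.56 ± 0.28 (adjusted p = 8.35e-07). SFC1, the mitochondrial succinate and fumarate carrier, was also low early and high late, although at 120 min in CO it was still at -0.88, where HAP4 was at 0.07. It fell at 15 to 60 min by 0.56 ± 0.12 in CO (adjusted p = 0.00915) and 1.00 ± 0.12 in N2 (adjusted p = 0.0013) and was higher at 24 h by 2.23 ± 0.31 (adjusted p = 0.000148). FBP1, the gluconeogenic bisphosphatase, was higher by 2.39 ± 0.34, and ACS1, the acetyl-CoA synthetase that activates acetate, fell by 1.5 ± 0.31 (adjusted p = 0.000197 and 0.00196), the second call being lost after quantile normalization (-0.84, adjusted p = 0.199). The count of CAT8 and ADR1 targets higher was 3 without the N2 array of 24 h, and the CO call of SFC1 was lost without 45 min (adjusted p = 0.0725).

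**Figure D5:**
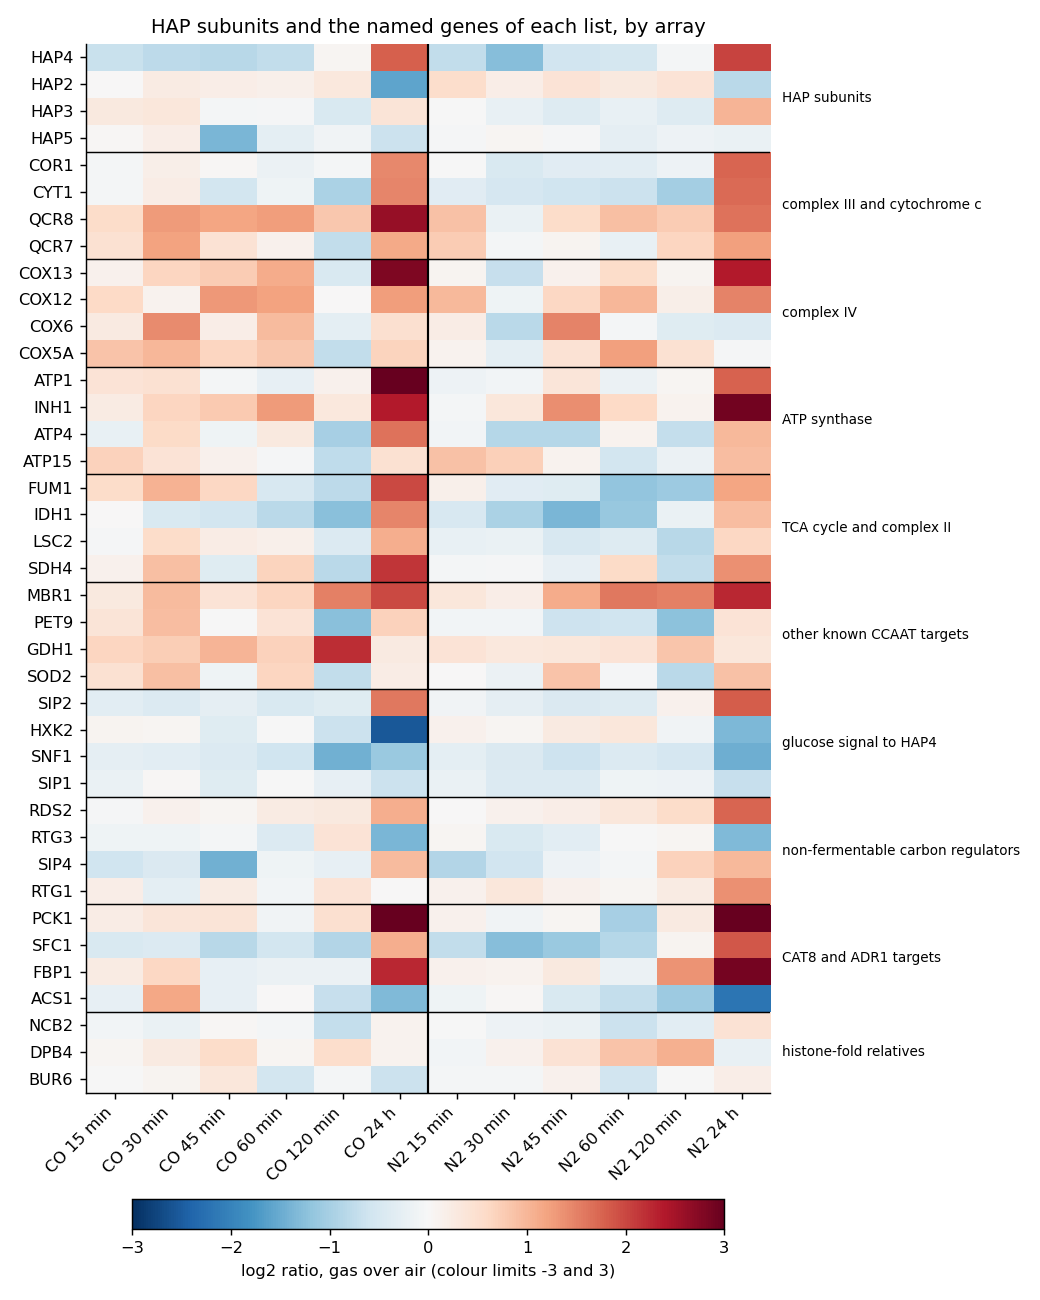
Log2 ratio of gas over air (colour, limits -3 and 3, so values beyond them share the end colour) of the 4 HAP subunits and the named genes of each list (rows) on the 12 arrays (columns, CO left and N2 right, each from 15 min to 24 h). HAP4 is below 0 on the 8 arrays of 15 to 60 min and at 1.79 and 2.03 at 24 h, where PCK1 reaches 4.60 and 4.71 and HXK2 lies at -2.54 and -1.35.

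Other proteins of the histone fold that HAP3 and HAP5 share were measured for comparison with these subunits. None of the 3 tested was called at 24 h by limma, where 22.5% of all ORFs were called higher and 25.1% lower. At an unadjusted p under 0.05, 1 of the 3 (NCB2) and 3087 of 5672 ORFs passed. With 3 genes these counts say little about histone-fold proteins as a group. NCB2 and BUR6, which form a repressor of the basal transcription machinery, differed by 0.48 ± 0.20 and -0.19 ± 0.23, and DPB4, a subunit of DNA polymerase epsilon, by -0.46 ± 0.23 (adjusted p = 0.0678, 0.524 and 0.124). DPB3 lacked values on some arrays and was not tested.

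The ORFs whose ratios were most like HAP4 over the 12 arrays were YPR002C-A (r = 0.987), RGL1 (0.98), PDR3 (0.979), CHO2 (0.979), RBH2 (0.979), YFL002W-A (0.975), YML045W (0.973) and KAE1 (0.972). PDR3 is an activator of drug resistance genes, CHO2 a methyltransferase of phosphatidylcholine synthesis and KAE1 a tRNA modification enzyme; none is in the lists above. In size the closest was CHO2, with a root mean square difference of 0.46 from HAP4, and the farthest was YPR002C-A, with 1.87 and a 24 h mean of 5.51. Over the 10 arrays to 120 min their r with HAP4 was 0.737 to 0.885, at ranks 18 to 227 of all tested ORFs, so the order rests in good part on the shared 24 h arrays. The least like were TCB1 (-0.985), DUF1 (-0.976) and HSP150 (-0.974). For HAP2 the most like were SIP3, YBR238C and LSM4 (0.974, 0.962 and 0.959), which over the 10 arrays to 120 min had r = 0.844, 0.371 and 0.412, so the likeness of YBR238C and LSM4 rests on the 24 h arrays. For HAP3 they were GAS1, PTR2 and TIM11 (0.955, 0.952 and 0.942), and for HAP5 MRF1, KAP123 and DBP2 (0.875, 0.875 and 0.874). The values for HAP5 include the CO array of 45 min, where HAP5 was at -1.37, and were not computed without it.

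None of the 4 genes overlaps its neighbours in the R64 annotation. HAP4 lies on chromosome XI between KTI12 and SLD2, whose 24 h ratios were 0.10 and 1.14 in CO and 0.81 and -0.39 in N2, all below HAP4 on the same arrays. HAP2 on chromosome VII lies beside MTO1, whose 24 h ratios were 1.25 in CO and 0.85 in N2, where HAP2 was at -1.58 and -0.82.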

How the data were processed

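The authors deposited 1 table of log ratios of the 2 channels, 1 value per ORF and array, treated here as log2 of Cy5 over Cy3; the log base, direction, background correction, normalization, platform and probe sequences are unstated in the sources used here. Per the labels, Cy5 held RNA of gas-exposed cells and Cy3 RNA of air cells of the same time. Whether both gases shared an air sample is not given either. The 5672 ORFs with a value on all 12 arrays went into limma 3.58.1 (R 4.3.3; functions lmFit, eBayes), p-values were adjusted by Benjamini and Hochberg over all of them, and the threshold was 0.05. Gas means were fitted without a time term (10 residual degrees of freedom, 6 at 15 to 60 min), CO against N2 with time as a block (5) and 24 h with period and gas (7). Times pair the gases by the labels, and deviations at matched times correlated at 0.255 to 0.776, though the CO arrays of 30 and 45 min matched an N2 array of another time better (0.571 and 0.385). ORF names were matched to symbols of the R64 annotation (5651 of 6150). The members, the gene lists, the first-hour comparison and the alternatives were chosen with earlier results of these data known. Named were the 4 subunits, up to 4 genes per list by the smallest adjusted p at 24 h and the ORFs of highest or lowest r with a subunit; the fits were tested on simulated data.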

Additional observations from a re-analysis of the deposited data

Results flagged for a closer look

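Within a gas, 5 of the 8 sets of 6 arrays of the subunits had 1 array far from the others, and in each the 24 h array was the one that stood apart. These were HAP4 in CO (1.79, with a gap of 0.656 of the whole range to the nearest array), HAP4 in N2 (2.03, 0.628), HAP2 in CO (-1.58, 0.837), HAP2 in N2 (-0.82, 0.769) and HAP3 in N2 (1.02, 0.738). HAP4 in N2 passed Dixon's critical value for 6 samples by little, and chance flags about 1 in 20 groups. Since the arrays of a gas are times and not replicates, the distance of the 24 h array is the late change already described. HAP5 in CO at 45 min (-1.37, 0.468) and HAP3 in CO at 120 min (-0.46, 0.476) did not pass.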

How the results depend on the processing

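For the 4 subunits in 6 comparisons, 524 values were recomputed under other settings: 494 kept their direction and side of the threshold, 7 lost a call, 7 gained one and 16 changed sign. The first-hour and 24 h calls of HAP4 and the 24 h call of HAP2 held throughout. Quantile normalization gave HAP2 in CO 0.02, and at 24 h HAP3 0.53 (no longer called), HAP5 0.09 and COX12 -0.08. Array weights gave HAP4 -0.64 in N2 and -0.65 in CO and HAP2 0.35 in N2, all called, and 0.14 for HAP2 in CO. Subtracting the 15 min ratios, the mean over later times was 0.56 in CO and 0.67 in N2 for HAP4, -0.41 in N2 for HAP2, -0.27 in CO for HAP3, and -0.16 and -0.35 in N2 for QCR8 and COX12. Exposure time as a replicate block made HAP5 in CO a call at -0.37 and changed no other subunit's call, and CO against N2 gave HAP2 -0.28 with no replicate block too.

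Leaving out a time or 1 array, the means against air ran from -0.64 to 0.03 for HAP4, 0.11 to 0.37 for HAP2 and -0.25 to 0.04 for HAP3 in N2, and from -0.59 to -0.07 for HAP4 and -0.19 to 0.19 for HAP2 in CO. HAP2 in N2 at 15 to 60 min ran from 0.31 to 0.41. At 24 h HAP3 ran from 0.38 to 1.28, HAP5 from -0.36 to 0.07, COX5A from -0.44 to 0.14, BUR6 from -0.65 to 0.27, SOD2 from -0.05 to 0.86 and RTG1 from -0.10 to 1.19. Where 1 array of 24 h is left out, the lone 24 h array is assumed to vary like the others.

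Over all ORFs, quantile normalization left 445 called higher and 357 lower at 24 h, against 1278 and 1425. Without 45 min the first-hour counts were 180 higher and 253 lower in CO, against 749 and 958, and 331 and 268 in N2, against 980 and 1089. With 15 min subtracted 346 were higher in CO and 354 in N2. The causes were not tested. The sources used here give no signal over background, so dim probes could not be set apart.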

Other observations

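The turn of HAP4 from low to high was shared by few ORFs. A pattern set after its values were seen, below 0 on all 8 arrays of 15 to 60 min and at 1 or above (at least 2-fold higher) on both 24 h arrays, was met by 13 of 5672 ORFs (0.229%). They were SFC1, HAP4, MRPS8, NHP2, GOT1, YER108C, SIP2, NUP49, KAR9, IBA57, RRG7, ITR2 and CLB1. SFC1 and HAP4 had the lowest first-hour means of the 13, -0.78 and -0.77, and ITR2, an inositol transporter, the highest 24 h mean, 2.37. CLB1, a mitotic cyclin, was at -0.21 early and 1.94 late. MRPS8, a mitochondrial ribosomal protein, was at -0.69 and 1.21, and IBA57, a mitochondrial iron-sulfur protein assembly factor, at -0.32 and 1.19. With each array centred on its median 17 ORFs met the pattern, the 13 among them, and after quantile normalization 2 did, HAP4 being 1 of them while SFC1 and SIP2 were not.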
